A study of Mus musculus with 3 samples.

Results

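The genes described here encode nuclear subunits of respiratory complexes II, III and IV, of ATP synthase (complex V) and of the carrier cytochrome c. They were taken from the RPKM table by their symbols (Sdha to Sdhd, and symbols beginning with Uqcr, Cox4 to Cox8 or Atp5, with Cyc1 and Cycs), which matched 45 of the 12852 genes. RPKM is a read density per transcript length and library size. The cells were B16F10, a pigmented mouse melanoma line. They were compared as 1 control library, labelled siCtrl and wild type, and 2 libraries labelled as separate Med23 knockdowns, siMed23A and siMed23B. Med23 is a subunit of Mediator, which connects transcription factors with RNA polymerase II, and the labels give neither a time after transfection nor the siRNA sequences. Whether A and B stand for separate siRNAs or for repeat cultures is not stated, so p-values measure only the spread between these libraries, which may be technical. The knockdown columns are called the first and the second library by their order, since the file's header does not separate their names cleanly.

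Oxidative phosphorylation passes electrons from succinate (complex II) or NADH (complex I) through ubiquinone to complex III, then by cytochrome c to complex IV, where oxygen is reduced. Complexes III and IV pump protons, and ATP synthase uses the gradient to make ATP. Complex II is encoded wholly in the nucleus, whereas the others also need subunits encoded in mitochondrial DNA, which were not analysed here. Melanoma cells vary in their use of this pathway, and Mitf, the melanocyte transcription factor, is known to drive Ppargc1a, a coactivator of mitochondrial genes.

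Med23 stood at 5.23 RPKM in the control and at 1.65 and 1.61 RPKM in the knockdown libraries, so the values went with the labels. All 10 melanocyte markers examined were present and fell by limma, from a summed 7143 RPKM to 3053 and 2942 RPKM. Of the 12 markers of other cells, 2 were in the table. Cd68, a macrophage marker, fell from 16.9 RPKM to 10.0 and 10.1 RPKM (log2 change -0.69, limma adjusted p = 0.00329), and Pdgfrb, a stromal marker, read 1.90, 2.22 and 2.29 RPKM and did not pass. The part of other cells in the members' falls was not tested. The deposited columns had been made equal in distribution, so read depth and total RNA could not be read from them, and no counting interval is given.

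Of the 45 genes, 41 encode cytochrome c or subunits of complexes II to V, and 4 carry a matching symbol without being subunits. The test took in 44 of the 45, all but Cox6a2, which lay under the minimum of 1 RPKM on average. A log2 change is the mean log2 ratio of the knockdown libraries to the control on the log2(RPKM + 1) scale. By limma on that scale, with a Benjamini-Hochberg adjusted p under 0.05 over 9722 genes, 18 members were lower (40.9%) and 9 higher (20.5%), and 17 did not pass. Over all tested genes the same rule called 24.0% lower and 26.3% higher. With no test, 7 members (15.9%) were at least 1.5-fold lower in both knockdown libraries, against a background of 9.98%. In the same way 1 member (2.27%) was 1.5-fold higher in both, against 10.5% of all tested genes. At 2-fold, 0 members were lower in both (2.83% of all tested genes) and 1, Cox7c, higher (2.57%). The members' median log2 ratio was -0.04, beside 0.01 for all tested genes. Without the 4 genes that are not subunits it was -0.15, over 40 tested genes.

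These calls have 2 limits. The control had no replicate, and calls depend on the spread it is given. With a control SD 2 times that of the knockdown libraries limma called 9 members lower and 4 higher (7.03% and 8.33% of all tested genes), and at 3 times 0 and 0 (0.792% and 1.21%). Across all 9614 tested genes with a known transcript, log2 ratios also fell with transcript length (Spearman -0.38). After a loess correction for length and GC content 31 members were lower and 2 higher, where all genes gave 26.6% and 27.4%. The spread was estimated again after this correction, so its calls and p-values reflect a new spread as well as the shifted log2 ratios. With the longest transcript of each gene, a choice made after seeing the data, 30 were lower and 5 higher (25.8% and 27.1%).

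**Figure D1:**
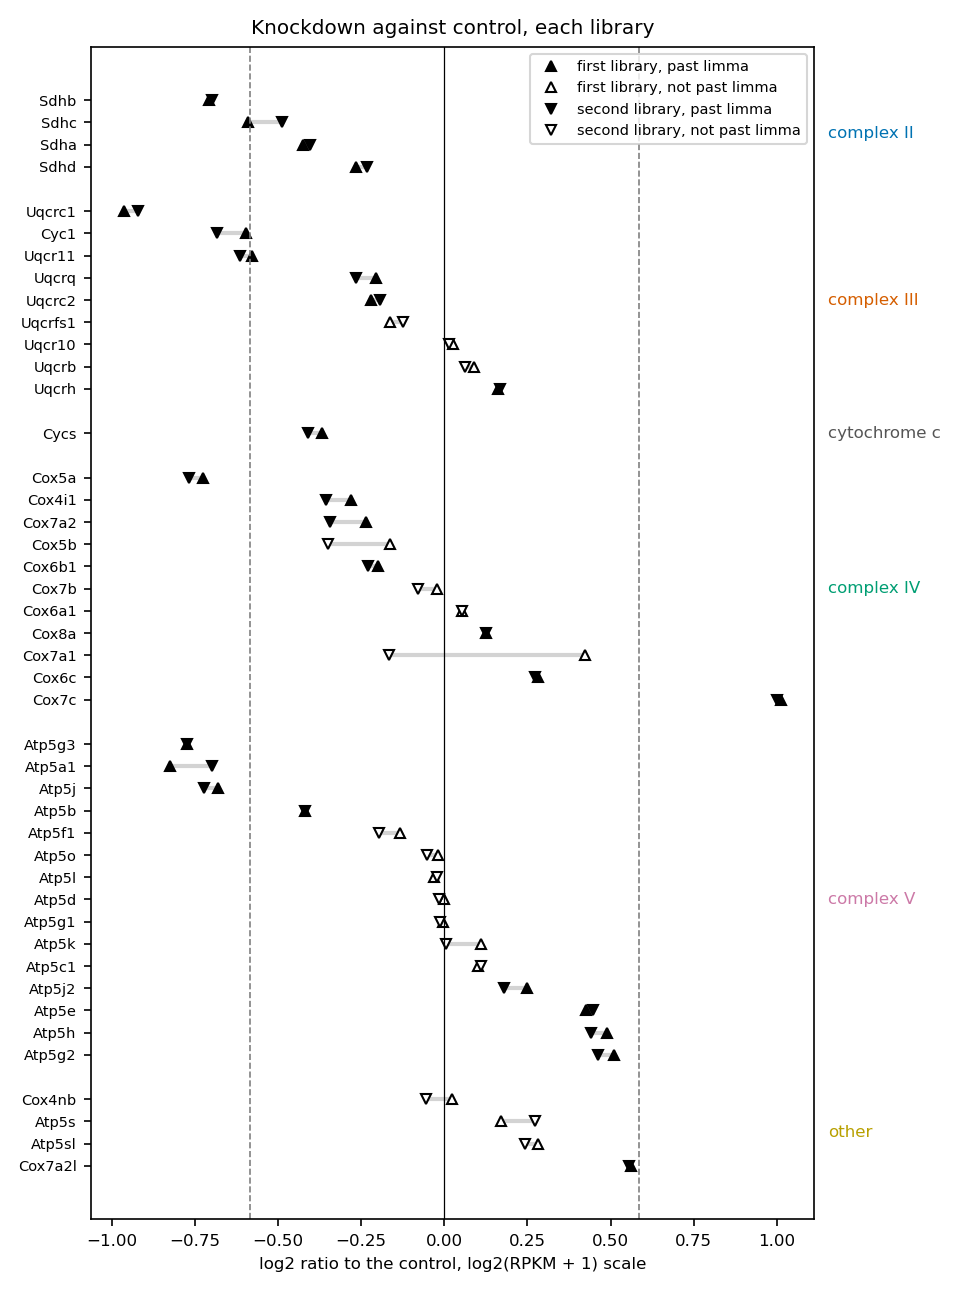
Log2 ratio to the control (horizontal axis, log2(RPKM + 1) scale) of the 44 tested genes in the first (upward triangles) and second (downward triangles) knockdown library, grouped by complex. Filled symbols passed limma, dashed lines mark 1.5-fold, and all 4 genes of complex II lie left of 0, while complexes III, IV and V have genes on both sides.

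Complex II, succinate dehydrogenase, was lower in all of its parts: 4 of 4 subunits fell by limma, with a median log2 ratio of -0.48. Over all tested genes 24.0% were called lower. Sdhb, the iron-sulfur subunit, read 145 RPKM in the control and 88.6 and 89.1 RPKM after knockdown. Both knockdown values lay close together and far under the control. The log2 ratio to the control was -0.70 (SE 0.06, limma adjusted p = 0.000825). Sdhc, a membrane anchor, read 60.9 RPKM in the control and 40.1 and 43.2 RPKM after knockdown (log2 change -0.54, SE 0.08, limma adjusted p = 0.00422). Sdha, the flavoprotein that oxidises succinate, read 102 RPKM and then 75.4 and 76.6 RPKM (log2 change -0.41, SE 0.06, limma adjusted p = 0.00411). Sdhd, the other anchor, changed least, from 145 RPKM to 120 and 123 RPKM (log2 change -0.25, SE 0.05, limma adjusted p = 0.0141). Sdhb and Sdhd stood at the same level in the control, with a ratio of 1.00, and at ratios of 0.736 and 0.724 after knockdown. The summed RPKM of complex II was 0.716 and 0.733 of the control's. After the length and GC correction the 4 genes were still called lower, with a median of -0.48, beside 26.6% of all tested genes. With the control SD at 2 times 1 of them, Sdhb, was still called lower, beside 7.03% of all tested genes. Without limma's intensity trend, Sdhd no longer passed (limma adjusted p = 0.0770).

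Complex III, the cytochrome bc1 complex, had a lower median for its larger than for its smaller subunits, with overlapping values. Of its 9 genes, 5 fell (55.6%), 1 rose (11.1%) and 3 did not pass limma, beside 24.0% lower and 26.3% higher of all tested genes. The 4 genes for the large core proteins and the redox subunits had a median log2 ratio of -0.42 (from -0.94 to -0.14). The 5 for small supernumerary subunits had a median of 0.02 (from -0.60 to 0.16). After the length and GC correction the medians were -0.60 and -0.39. Uqcrc1, core protein 1, stood at 131 RPKM in the control and at 66.5 and 68.5 RPKM in the knockdown libraries. This log2 ratio of -0.94 was the lowest among the tested members (SE 0.06, limma adjusted p = 0.000504). Its partner in the core, Uqcrc2, fell less, from 105 RPKM to 90.1 and 91.6 RPKM (log2 change -0.21, SE 0.06, limma adjusted p = 0.0308). The ratio of Uqcrc1 to Uqcrc2 was thus 1.24 in the control and 0.739 and 0.747 after knockdown. Cyc1, the cytochrome c1 that hands electrons to cytochrome c, fell from 246 RPKM to 162 and 153 RPKM (log2 change -0.64, SE 0.06, limma adjusted p = 0.00122). Uqcrfs1, the Rieske iron-sulfur protein, did not pass, at 91.4 RPKM in the control and 81.6 and 83.8 RPKM after knockdown (limma adjusted p = 0.0961).

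Among the small subunits of complex III the directions were mixed. Uqcr11 fell from 59.1 RPKM to 39.2 and 38.3 RPKM (log2 change -0.60, SE 0.07, limma adjusted p = 0.00233). Uqcrq fell from 152 RPKM to 132 and 127 RPKM (log2 change -0.23, SE 0.06, limma adjusted p = 0.0199). Uqcrh, the hinge protein, rose from 136 RPKM to 152 and 153 RPKM (log2 change 0.16, SE 0.05, limma adjusted p = 0.0423). Uqcr10 read 192, 196 and 194 RPKM and Uqcrb 154, 164 and 161 RPKM in the control, first and second library, and neither passed limma. The corrected values turned Uqcrh, Uqcr10 and Uqcrb below 0, with log2 ratios of -0.21, -0.39 and -0.33. All 9 genes of the complex were then called lower, beside 26.6% of all tested genes. With the control SD at 2 times, 3 genes were called, all lower, beside 7.03% of all tested genes. Uqcrq, Uqcrc2 and Uqcrh did not pass without the intensity trend (limma adjusted p of 0.0950, 0.116 and 0.182), nor Uqcrh with no minimum level (limma adjusted p = 0.0530).

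Cycs, the somatic cytochrome c, read 26.1 RPKM in the control and 20.0 and 19.4 RPKM after knockdown. The log2 ratio to the control was -0.39 (SE 0.08, limma adjusted p = 0.0133), and -0.30 after the correction. In each library its level lay well under that of its docking partner Cyc1, on the per-length RPKM scale. All of the 36-base stretches of its coding sequence also occur in other genes of the annotation, mostly pseudogenes, so its level is uncertain.

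**Figure D2:**
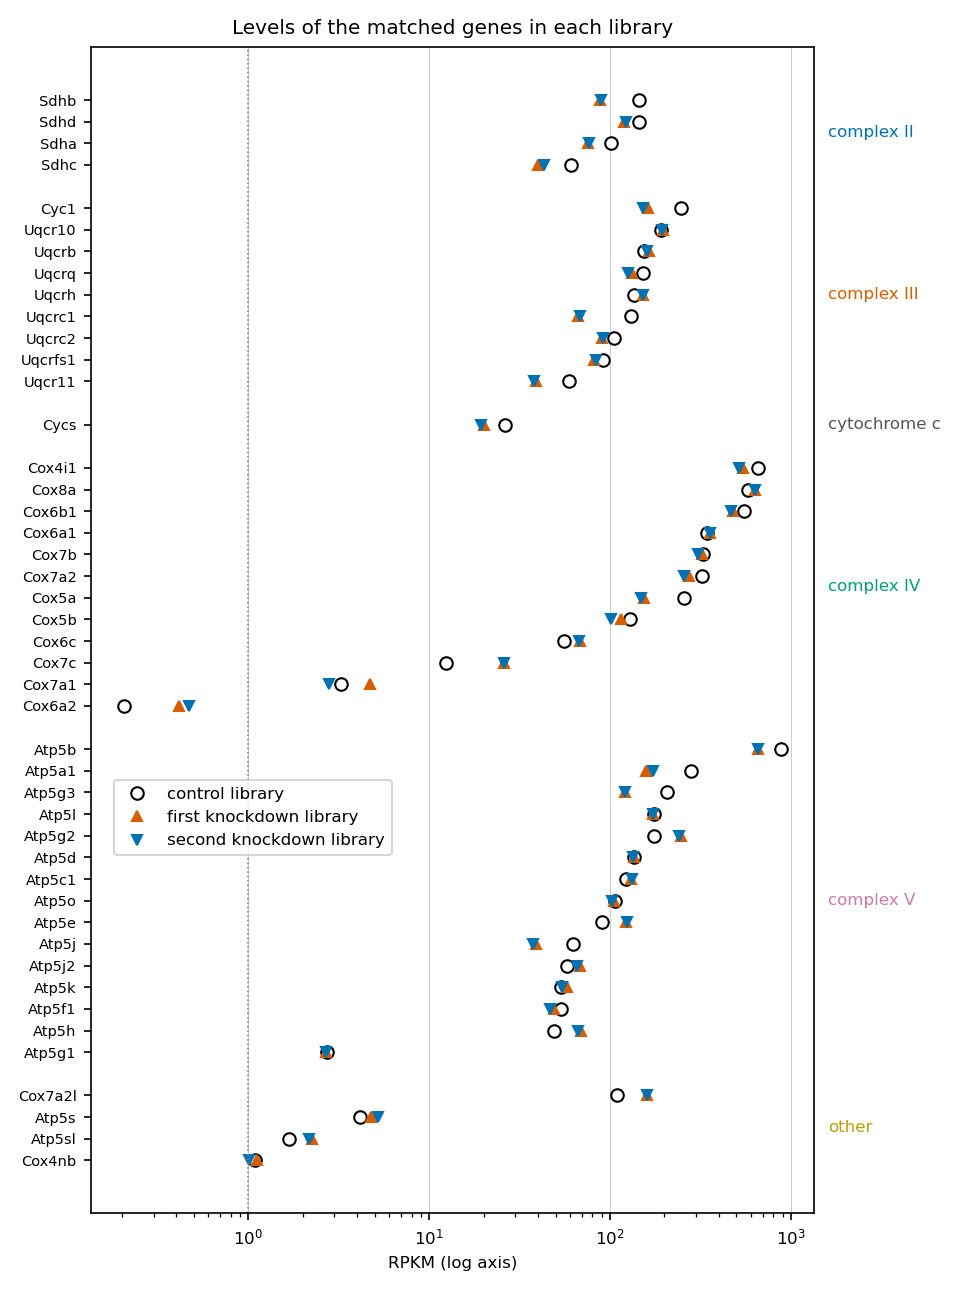
RPKM of the 45 genes (horizontal log axis) in the control (open circles) and in the first and second knockdown libraries (triangles), ordered by control level within each complex. Levels run from 0.206 RPKM for Cox6a2 to 882 RPKM for Atp5b in the control, and the dotted line marks 1 RPKM.

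Complex IV, cytochrome c oxidase, had members moving both ways: of 11 tested genes 4 fell, 3 rose and 4 did not pass limma, with a median log2 ratio of -0.05. These shares were 36.4% lower and 27.3% higher, beside 24.0% and 26.3% of all tested genes. Cox5a, which binds on the matrix side of the enzyme, stood at 255 RPKM in the control and at 154 and 149 RPKM after knockdown. It had the largest fall in the complex (log2 change -0.75, SE 0.05, limma adjusted p = 0.000586). Its neighbour Cox5b, a zinc-binding subunit, read 130, 116 and 102 RPKM and did not pass (limma adjusted p = 0.0572). Cox4i1, which takes part in regulation of the enzyme by ATP, fell from 659 RPKM to 543 and 515 RPKM (log2 change -0.32, SE 0.05, limma adjusted p = 0.00415). Cox6b1, on the cytochrome c side, fell from 550 RPKM to 479 and 469 RPKM (log2 change -0.21, SE 0.04, limma adjusted p = 0.00819).

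Cox7c was the member with the largest rise. It read 12.4 RPKM in the control and 26.0 and 25.8 RPKM after knockdown, so both knockdown values lay far above the control's. The log2 ratio to the control was 1.01 (SE 0.08, limma adjusted p = 0.000896). It remained positive after the length and GC correction, at 0.62 (limma adjusted p = 0.000153). Every 36-base stretch of its coding sequence was also found in at least 1 of 5 pseudogenes, so reads may have been shared among copies, and the part of this in the rise was not tested. Its level in the control was also far under that of Cox4i1, with which it is assembled: the ratio of Cox7c to Cox4i1 was 0.0188 in the control and 0.0480 and 0.0501 after knockdown. Cox6c rose from 55.6 RPKM to 67.9 and 67.5 RPKM (log2 change 0.28, SE 0.06, limma adjusted p = 0.0163). Cox8a rose from 578 RPKM to 630 RPKM in both libraries (log2 change 0.12, SE 0.03, limma adjusted p = 0.0314). Both became negative after the correction, at -0.11 and -0.27. Cox7b read 326, 321 and 308 RPKM and did not pass. The corrected values called 8 of the 11 genes lower and 1 higher, Cox7c, beside 26.6% and 27.4% of all tested genes. With the control SD at 2 times, Cox5a was still called lower and Cox7c higher, beside 7.03% and 8.33% of all tested genes. Without the intensity trend Cox6b1, Cox7a2, Cox6c and Cox8a did not pass (limma adjusted p of 0.109, 0.0685, 0.0576 and 0.290), nor did Cox8a with no minimum level (limma adjusted p = 0.0660).

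Several complex IV subunits have tissue forms that occupy the same place. For subunit 6a the ubiquitous Cox6a1 read 346 RPKM in the control and 359 RPKM in both knockdown libraries, and did not pass limma (log2 change 0.05). The muscle form Cox6a2 was at 0.206, 0.415 and 0.468 RPKM, at most 0.130% of the family's RPKM in any library. For subunit 7a the ubiquitous Cox7a2 fell from 324 RPKM to 275 and 255 RPKM (log2 change -0.29, SE 0.06, limma adjusted p = 0.0115). The muscle form Cox7a1 was at 3.26, 4.71 and 2.79 RPKM, so the knockdown libraries lay on either side of the control. It made up 0.996%, 1.68% and 1.08% of the family. Thus the ubiquitous forms held at least 98.3% of each family in all 3 libraries.

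Complex V, ATP synthase, consists of the F1 head that makes ATP, a peripheral stalk that holds it and a membrane part whose c ring turns. Of its 15 genes 4 fell, 4 rose and 7 did not pass limma, with a median log2 ratio of -0.01. These shares, 26.7% in each direction, were near those of all tested genes, 24.0% lower and 26.3% higher. In the head, Atp5a1, the alpha subunit, stood at 281 RPKM in the control and 158 and 173 RPKM after knockdown (log2 change -0.76, SE 0.07, limma adjusted p = 0.00109). Atp5b, the catalytic beta subunit and the most abundant of all members, fell from 882 RPKM to 659 RPKM in both libraries (log2 change -0.42, SE 0.03, limma adjusted p = 0.000837). Its rank among all genes went from 31 to 41. Alpha and beta are assembled in equal number, and the RPKM ratio of Atp5b to Atp5a1 was 3.14 in the control and 4.17 and 3.82 after knockdown.

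The smaller head subunits did not follow. Atp5c1, the gamma shaft, read 122, 131 and 132 RPKM and Atp5d, the delta subunit, 136, 136 and 134 RPKM, and neither passed limma. Atp5e, the epsilon subunit, rose from 90.6 RPKM to 122 and 124 RPKM (log2 change 0.44, SE 0.05, limma adjusted p = 0.00289). In the peripheral stalk, Atp5j, also called coupling factor F6, fell from 62.8 RPKM to 38.8 and 37.6 RPKM (log2 change -0.70, SE 0.07, limma adjusted p = 0.00157). Atp5h, the d subunit beside it, rose from 48.8 RPKM to 68.9 and 66.5 RPKM (log2 change 0.47, SE 0.07, limma adjusted p = 0.00406). The other stalk genes, Atp5f1 (53.8, 49.0 and 46.8 RPKM) and Atp5o (106, 105 and 102 RPKM), did not pass. In the membrane part Atp5j2 rose from 57.7 RPKM to 68.6 and 65.4 RPKM (log2 change 0.21, SE 0.07, limma adjusted p = 0.0459). Atp5k (53.8, 58.2 and 54.0 RPKM) and Atp5l (176, 172 and 173 RPKM) did not pass. After the length and GC correction Atp5e, Atp5h and Atp5j2 no longer passed, with log2 ratios of 0.02, 0.11 and -0.069 (limma adjusted p of 0.814, 0.227 and 0.461). Complex V then had 0 genes called higher and 9 lower, beside 27.4% and 26.6% of all tested genes. With the longest transcripts it had 2 and 8, beside 27.1% and 25.8%, and Atp5e still passed (log2 change 0.25, limma adjusted p = 0.0113). Atp5l was the other gene then called higher (log2 change 0.28), although the length and GC correction above called it lower (log2 change -0.40). Atp5j2 also did not pass without the intensity trend (limma adjusted p = 0.119) or with no minimum level (limma adjusted p = 0.0543).

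The main c ring genes, Atp5g3 and Atp5g2, went in opposite directions. Atp5g1, Atp5g2 and Atp5g3 encode the same mature c subunit with different import sequences. Atp5g3 read 208 RPKM in the control and 121 RPKM in both knockdown libraries (log2 change -0.77, SE 0.05, limma adjusted p = 0.000532). Atp5g2 read 174 RPKM and then 248 and 240 RPKM (log2 change 0.49, SE 0.05, limma adjusted p = 0.00165). Atp5g1 was low throughout, at 2.71, 2.71 and 2.68 RPKM, and did not pass. Atp5g3 was therefore the higher of the pair in the control and Atp5g2 in both knockdown libraries. The share of Atp5g2 in the family's RPKM was 45.3% in the control and 66.7% and 66.0% after knockdown. Together the 3 genes summed to 384 RPKM in the control, 372 RPKM in the first and 364 RPKM in the second knockdown library. After the length and GC correction the fall of Atp5g3 was larger (log2 change -1.11) and Atp5g2 no longer passed (log2 change 0.13, limma adjusted p = 0.102). No 36-base stretch of the Atp5g3 coding sequence occurred in another gene, whereas all of those of Atp5g1 and Atp5g2 did, in 5 and 4 pseudogenes, so the levels of these are uncertain.

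**Figure D3:**
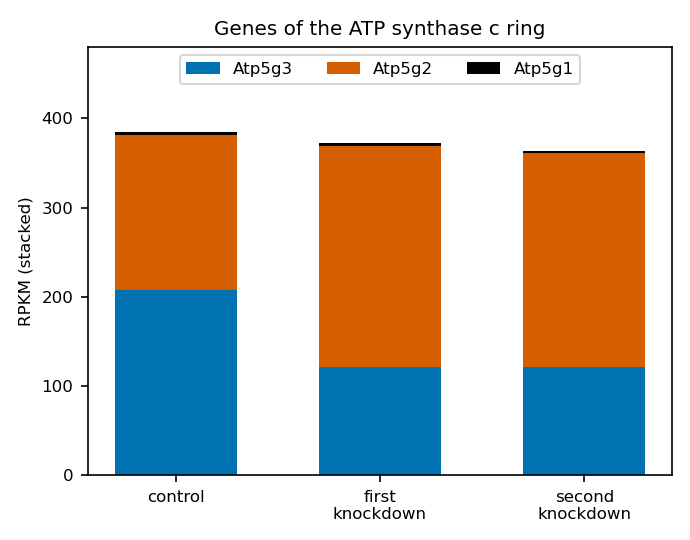
Stacked RPKM of Atp5g3, Atp5g2 and Atp5g1 in the control and the first and second knockdown library. Atp5g3 drops from 208 to 121 RPKM, Atp5g2 grows from 174 to 248 and 240 RPKM, and the sums are 384, 372 and 364 RPKM.

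Since the same mature protein comes from separate promoters here, the promoters of the c ring genes are shown, with that of Sdhb, the member of complex II with the largest fall. The windows run from 250 bases before to 30 bases after the RefSeq start (build GRCm38.p6) and are written 5′ to 3′ on the gene's strand. Their positions are chr11:96075602-96075881 (minus strand) for Atp5g1, chr15:102671018-102671297 (minus strand) for Atp5g2, chr2:73911297-73911576 (minus strand) for Atp5g3 and chr4:140961021-140961300 (plus strand) for Sdhb. Capitals mark matches, on either strand, to CGCATGCG (the core of the NRF1 motif), CCGGAAG (the core of ETS factors such as GABP and Elk1), AAGATGGCG (YY1), CACGTG (an E-box, which Mitf and Myc can bind) or TATAAA (the core promoter box of that name).
Atp5g1: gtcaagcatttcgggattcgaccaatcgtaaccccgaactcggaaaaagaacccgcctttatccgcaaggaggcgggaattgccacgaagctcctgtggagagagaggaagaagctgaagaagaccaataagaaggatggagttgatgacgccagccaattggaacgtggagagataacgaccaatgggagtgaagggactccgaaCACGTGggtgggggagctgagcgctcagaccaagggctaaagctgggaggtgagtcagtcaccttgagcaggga
Atp5g2: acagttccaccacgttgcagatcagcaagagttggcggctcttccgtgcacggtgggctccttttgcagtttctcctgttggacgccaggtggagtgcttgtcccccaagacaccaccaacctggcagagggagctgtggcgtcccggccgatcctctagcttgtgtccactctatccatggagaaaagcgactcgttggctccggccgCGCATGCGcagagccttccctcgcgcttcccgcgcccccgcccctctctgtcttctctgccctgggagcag
Atp5g3: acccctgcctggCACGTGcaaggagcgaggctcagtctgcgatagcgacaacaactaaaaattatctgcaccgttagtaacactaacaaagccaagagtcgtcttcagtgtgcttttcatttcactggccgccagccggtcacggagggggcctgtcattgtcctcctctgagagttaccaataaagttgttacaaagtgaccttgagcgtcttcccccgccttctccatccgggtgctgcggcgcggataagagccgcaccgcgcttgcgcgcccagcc
Sdhb: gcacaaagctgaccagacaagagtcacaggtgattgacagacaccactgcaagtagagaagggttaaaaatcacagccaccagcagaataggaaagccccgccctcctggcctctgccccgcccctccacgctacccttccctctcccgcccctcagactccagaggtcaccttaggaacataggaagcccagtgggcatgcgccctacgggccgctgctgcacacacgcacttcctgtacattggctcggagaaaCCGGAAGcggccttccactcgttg

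The Atp5g2 window holds 1 NRF1 match, the Atp5g1 and Atp5g3 windows 1 E-box each, and the Sdhb window 1 ETS match. The windows of a whole chromosome were left out of the search, and 35 of the 45 members had a window. The ETS letters occurred in 11 of the 35 (31.4%), in 19.9% of the windows of tested genes and in 8.70% of all 27025 windows searched. The NRF1 letters occurred in 6 members (17.1%: Atp5g2, Atp5k, Atp5l, Cox6a1, Cycs and Uqcr11), in 4.24% of tested genes' windows and in 1.82% of all. The E-box was in 5 members, in 10.5% of tested genes' windows and in 6.89% of all, the TATAAA letters in 1 member, 5.87% and 13.7%, and the YY1 letters in 0 members, 2.69% and 1.10%. Of 12 members with a window that were lower by limma 4 had the ETS letters, and of 8 that were higher 4 had them. NRF1 letters were in 2 of these 12 and 1 of these 8, and the E-box in 1 and 0. No motif searched is contained in another, and a match describes the sequence and does not show binding.

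Of the 4 matched genes that are not subunits, 1 passed limma and 3 were above the control in both libraries, with a median log2 ratio of 0.24. Cox7a2l, a factor that joins complexes III and IV into supercomplexes, rose from 109 RPKM to 161 and 161 RPKM. Its log2 ratio was 0.56 (SE 0.05, limma adjusted p = 0.00128), and 0.31 after the correction, when it was still called. A single pseudogene shares 59.7% of its 36-base coding stretches. Cox4nb, now Emc8 of the endoplasmic reticulum membrane complex, was near the minimum at 1.09, 1.12 and 1.01 RPKM. Atp5s, now Dmac2l, read 4.16, 4.81 and 5.23 RPKM, and Atp5sl, now Dmac2, 1.68, 2.26 and 2.18 RPKM. These last 3 genes did not pass limma.

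Across the 40 tested subunits, including cytochrome c, genes with longer coding sequences had lower log2 ratios. The 9 genes with at least 800 coding bases had a median log2 ratio of -0.42, with 7 called lower and 0 higher. The 11 genes of 400 to 800 bases had a median of -0.16, with 5 lower and 2 higher, and the 20 shorter ones a median of 0.04, with 6 lower and 6 higher. Over tested genes of all lengths 24.0% were called lower and 26.3% higher. Shares for all genes within these classes, or by shared sequence, were not computed. Spearman's correlation between log2 ratio and coding length was -0.47 across these genes, which share the same 3 libraries, and -0.29 across 9480 tested genes. Members under 400 bases that fell, such as Uqcr11 and Atp5j, went against this order, and so did Atp5c1, which is longer and did not pass. The 19 subunits with under 5% of shared 36-base stretches had a median of -0.25, with 13 lower and 2 higher. The 12 with at least 50% had a median of -0.02, with 2 lower and 4 higher. The part of length and of shared sequence in the members' log2 ratios was not tested.

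**Figure D4:**
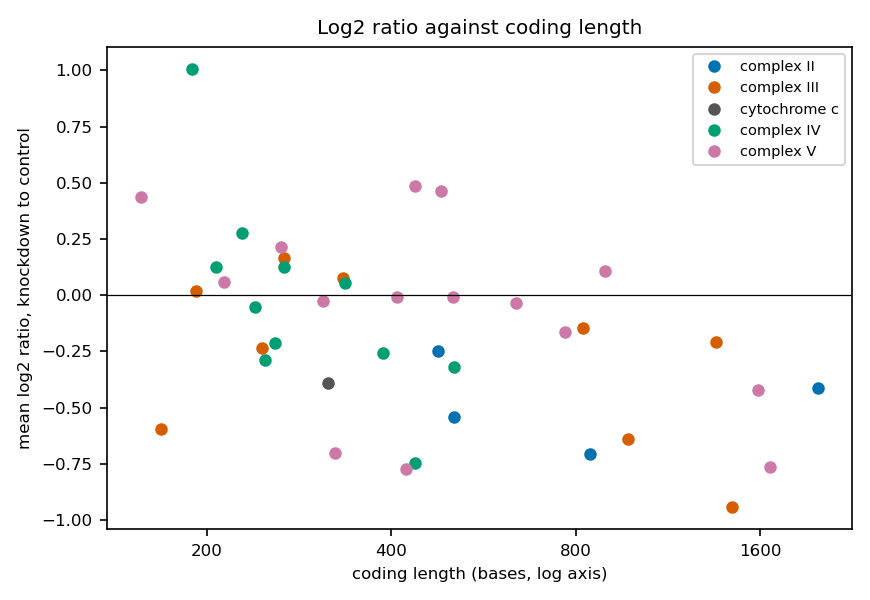
Mean log2 ratio of the knockdown libraries to the control (vertical axis) against coding length in bases (log axis) for the 40 tested subunits, coloured by complex. Of the 9 genes with at least 800 bases, 8 lie below 0 (all but Atp5c1), while shorter genes lie on both sides.

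The length and GC correction shifted most members downward. Falls of at least 1.5-fold in both libraries as deposited were seen for Sdhb, Uqcrc1, Cyc1, Cox5a, Atp5g3, Atp5a1 and Atp5j, and their corrected log2 ratios lay between -1.14 (Uqcrc1) and -0.82 (Atp5a1). By complex, the corrected counts were 4 of 4 lower for II, 9 of 9 for III, 8 of 11 for IV and 9 of 15 for V, with medians of -0.48, -0.39, -0.34 and -0.34. Of the 9 members higher as deposited, Cox7c and Cox7a2l were still called higher. For the 38 complex I entries of the table, Ndufa4 and Ndufa4l2 included, the counts went from 13 higher and 6 lower to 2 higher and 20 lower. Over all tested genes 26.3% were higher and 24.0% lower as deposited, and 27.4% and 26.6% after the correction.

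**Figure D5:**
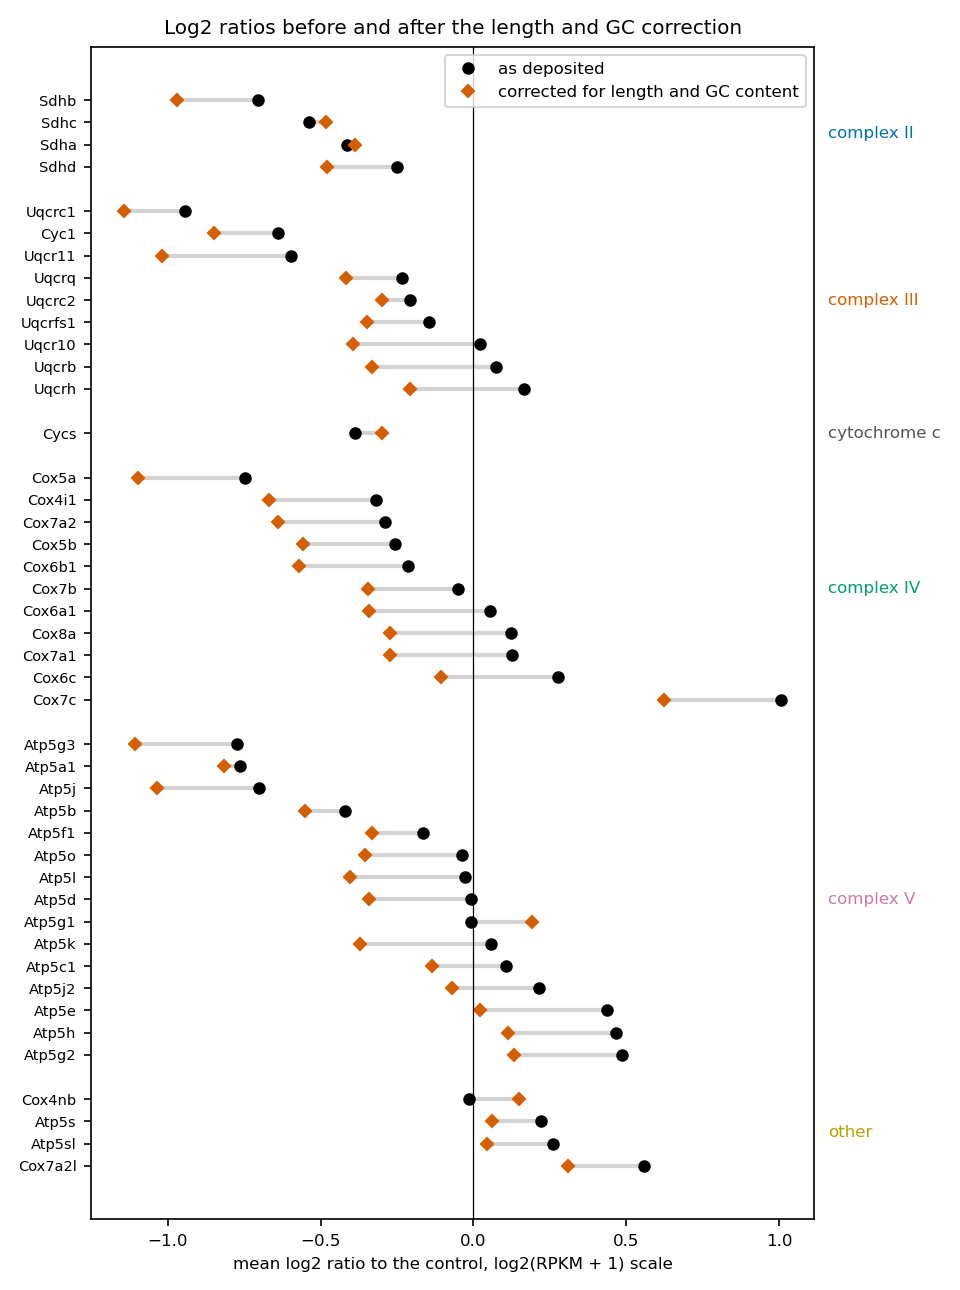
Mean log2 ratio to the control of the 44 tested genes as deposited (black circles) and after correction by loess for length and GC content (orange diamonds), grouped by complex. Medians of complexes II, III, IV and V go from -0.48, -0.21, -0.05 and -0.01 to -0.48, -0.39, -0.34 and -0.34.

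The list of factors that build or restrain these complexes had more genes called higher than lower. It also counts Ndufa4, Usmg5 and 2010107E04Rik, which are parts of the complexes themselves. Of 34 listed gene IDs 32 were tested, and 15 rose (46.9%), 8 fell (25%) and 9 did not pass limma. Over all tested genes 26.3% were higher and 24.0% lower. The list's median log2 ratio was 0.16. After the length and GC correction 11 were higher and 8 lower, where all genes gave 27.4% and 26.6%. With the control SD at 3 times 0 were higher and 1 lower, beside 1.21% and 0.792% of all tested genes. Surf1, needed for assembly of complex IV, rose from 7.12 RPKM to 14.5 and 15.2 RPKM (log2 change 0.97, SE 0.10, limma adjusted p = 0.00154). Cox16, another complex IV factor that the table carries under a pair of gene IDs, rose from 6.33 RPKM to 12.5 and 12.6 RPKM under one of them. Under the other it rose less, from 6.38 RPKM to 8.32 and 8.30 RPKM (log2 change 0.34, limma adjusted p = 0.0376). Both IDs are counted among the 15 that rose. Taco1, which activates translation of the mitochondrial subunit 1 of complex IV, fell from 5.25 RPKM to 1.10 and 1.65 RPKM (log2 change -1.41, limma adjusted p = 0.00254). Lrpprc, which stabilises mitochondrial mRNAs, fell from 10.4 RPKM to 4.70 and 4.46 RPKM (log2 change -1.04, limma adjusted p = 0.00166). Ndufa4, once assigned to complex I and now to complex IV, fell from 756 RPKM to 436 and 429 RPKM (log2 change -0.80, limma adjusted p = 0.000239). It alone of the list still passed with the control SD at 3 times (limma adjusted p = 0.0294), and it was singled out after its values were seen.

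Among regulators of mitochondrial genes the calls went both ways. Of 30 listed genes 24 were tested, and 4 rose (16.7%), 5 fell (20.8%) and 15 did not pass, with a median log2 ratio of -0.02. Over all tested genes 26.3% were higher and 24.0% lower, and 4834 of 9722 did not pass. After the correction 8 were higher and 4 lower, where all genes gave 27.4% and 26.6%. Myc rose from 8.90 RPKM to 20.0 and 22.9 RPKM (log2 change 1.18, limma adjusted p = 0.00136), and Sirt3, a mitochondrial deacetylase, from 4.45 RPKM to 8.78 and 7.83 RPKM (log2 change 0.77, limma adjusted p = 0.00478). Creb1 fell from 5.49 RPKM to 2.62 and 2.70 RPKM (log2 change -0.83, limma adjusted p = 0.00342), and Mxi1, which opposes Myc, from 16.4 RPKM to 9.79 and 9.25 RPKM (log2 change -0.73, limma adjusted p = 0.00330). Nrf1 (2.08, 2.22 and 1.93 RPKM), Gabpa (6.70, 8.48 and 5.73 RPKM) and Tfam (5.53, 4.91 and 4.74 RPKM), known activators of nuclear or mitochondrial respiratory genes, did not pass. Ppargc1a, named like these 3 after its values were seen, fell from 6.61 RPKM to 4.17 and 3.29 RPKM (log2 change -0.69, SE 0.15, limma adjusted p = 0.0136). The remaining genes called lower were Yy1 (log2 change -0.30) and Peo1 (log2 change -0.54). Those called higher were Max (log2 change 0.59) and Polg2 (log2 change 0.72).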

How the data were processed

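RNA sequencing libraries of B16F10 cells, 1 control and 2 Med23 knockdowns, were compared. The authors deposited RPKM. CASAVA 1.4, Cufflinks, TopHat and the build mm9 are listed in the submitters' processing notes without their roles. Sorted columns were equal in 95.3% of positions, so the values had been quantile normalized before they were deposited, which can equalise the knockdown values of abundant genes (exactly so for 4 members) and understate their SD. Read depth was unknown.

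Values were analysed as log2(RPKM + 1), which understates the change of low genes. The 9722 of 12852 genes that averaged 1 RPKM or more were fitted with limma 3.58.1 in R 4.3.3 (intensity trend, Benjamini-Hochberg adjustment, threshold 0.05). The residual spread comes from the 2 knockdown libraries, and the control is taken to vary like them. The step was tested on simulated data in which all libraries had the same spread for a gene. That test therefore cannot show whether the control varies like the knockdown libraries. Members and lists were chosen with earlier results of these data known. Named with full statistics were all Sdh genes, Cyc1 and Cycs, isoform families, up to 4 members a direction in complexes III to V by the smaller change of the 2 libraries, and up to 2 a direction from the other lists. Genes at or under the minimum or without a role in these complexes were also named. Alternatives were a pseudocount of 0.1, no minimum or 5 RPKM, median scaling, repeated quantile normalization, no trend, a control SD of 2 or 3 times, a fold of 2, each knockdown library left out, and a correction by loess for the length and GC content of transcripts. These and shared 36-base stretches came from GENCODE M21 transcripts (the transcript with the longest coding sequence), and promoters from RefSeq, both GRCm38, a build other than mm9. Python 3.11.15 with numpy 2.4.6, pandas 2.3.3 and matplotlib 3.10.9 was used for tables and plots.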

Additional observations from a re-analysis of the deposited data

How the results depend on the processing

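No paired analysis was possible because the control group has 1 library. The counts and medians over the members, 9 higher and 18 lower by limma, 1 higher and 7 lower 1.5-fold in both libraries, and a median log2 ratio of -0.04, were the same under median scaling. With a pseudocount of 0.1 they differed by 1 gene, 8 being 1.5-fold lower, and after repeated quantile normalization by the median, -0.065. The deposited columns were already nearly equal in distribution. Median scaling and repeated quantile normalization could therefore change little, and their outcome is no check on the counts. Without an intensity trend 5 members were called higher and 13 lower, and with no minimum 7 were higher. With a control SD of 2 times that of a knockdown library 4 were higher and 9 lower, and at 3 times 0 and 0. No member was 2-fold lower in both libraries (0, against 7 at 1.5-fold). With a minimum of 5 RPKM the median was -0.16. With 1 knockdown library left out it ranged from -0.10 to -0.026, and counts lower by 1.5-fold were 8 and 8. The share of Atp5g2 in the c ring, 66.4% on average, ranged from 66.0% to 66.7%.

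The length and GC correction gave 2 higher and 31 lower by limma and a median of -0.35. With the longest transcript of each gene, an alternative chosen after seeing the data, it gave 5 higher, 30 lower, 0 and 11 past 1.5-fold, and a median of -0.36. Log2 ratios that changed sign were, with the planned and then the added length, Uqcr10 -0.39 and -0.40, Uqcrb -0.33 and -0.36, Uqcrh -0.21 and -0.18, Cox6a1 -0.34 and -0.35, Cox8a -0.27 and -0.29, Cox7a1 -0.27 and -0.30, Atp5g1 0.19 and 0.13, Atp5k -0.37 and -0.35, Atp5c1 -0.13 and -0.077, and Cox4nb 0.15 and 0.11. With the planned length only these were Cox6c, at -0.11, and Atp5j2, at -0.069, and with the added length only Atp5l, at 0.28. The median of complex IV became 0.00 (0.0014) with no minimum. The cause of these shifts was not tested.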
